A study of Mus musculus with 6 samples.

Results

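The genes of the constitutive proteasome were examined in the Ba/F3 line, mouse pro-B cells that need interleukin-3 to grow. The set held 34 genes chosen by name, 28 for subunits of the complex and 6 for factors that help to assemble it, out of 18193 genes measured. Each of the 34 had a probe set that carried its symbol alone. Whether these probe sets also detect other transcripts was not tested. For each gene the probe set with the highest mean level over the 6 arrays was used. The cells had been transduced with a retroviral, doxycycline-controlled construct for SPAG9-JAK2, a fusion of the scaffold protein SPAG9 with the tyrosine kinase JAK2. Both groups carried this construct: the induced cells had 500 ng/ml doxycycline (3 arrays) and the uninduced cells, which the labels also call mock, had none (3 arrays), and RNA was taken at 48 h. Affymetrix arrays gave a signal intensity, in arbitrary units, for each probe set. The comparison addresses which genes and pathways respond to the fusion. No array held cells with doxycycline but without the fusion construct, so an effect of the drug and one of the fusion cannot be told apart here. The sources used here do not say if the medium held interleukin-3.

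The proteasome is the protease that degrades most ubiquitin-tagged proteins of the cytosol and nucleus. Its barrel-shaped core particle is built from outer rings of alpha subunits, which form the entry gate, and inner rings of beta subunits, some of which cut the substrate. The regulatory particle on the end of the core has a base, whose ring of ATPases unfolds the substrate and pushes it into the core, and a lid, which removes the ubiquitin chain. In mammalian cells the transcription factor NFE2L1 raises the genes of all these subunits together when proteasome activity is short, whereas interferons raise a separate set of catalytic subunits that form the immunoproteasome.

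Before the results, the arrays numbered 1 have to be set apart, uninduced replicate 1 most of all. Over the genes at or above the median level, the SD of the log2 difference between arrays was 0.298 for uninduced replicates 2 and 3, but 0.708 and 0.670 for uninduced replicate 1 against these, and 0.529 for induced replicate 1 against uninduced replicate 1. Between induced replicates 2 and 3 it was 0.349, and between induced replicate 1 and these it was 0.550 and 0.523. The actin control gave a log2 ratio of its 3′ over its 5′ probe set, which widens as RNA degrades, of 0.65, 0.19 and 0.20 on the induced arrays, against 0.68, 0.40 and 0.45 on the uninduced arrays, so that both arrays numbered 1 were highest. The same ratio for Gapdh was -0.60, -0.72 and -0.52 on the induced arrays, against -0.54, -0.34 and -0.39 on the uninduced arrays. Here the arrays numbered 1 were not the highest. For both controls each uninduced array had a higher ratio than the induced array of the same number. The part of RNA quality in the results was not tested. Mouse Jak2 stood at signals of 1430.1, 1740.2 and 1599.9 on the induced arrays, against 1175, 3439 and 3081 on the uninduced arrays, and Spag9 at 2219, 1667 and 1938, against 2222, 4702 and 4660. Neither gene was called with all arrays. Both were called lower in induced cells without uninduced replicate 1 (limma adjusted p = 0.0317 for Jak2 and 0.0276 for Spag9) and with the arrays numbered 2 and 3 alone (0.0456 and 0.0382). The sources used here do not say if these mouse probe sets detect the fusion, so the probe sets do not check the labels. Of 12 measured genes of the pro-B list, Csf2rb, Csf2rb2, Ptprc and Il3ra were far above the median of all probe sets. The progenitor receptor Kit and the B-lineage genes Cd79a, Ebf1, Rag1 and Vpreb1 were below it. Of the other B-lineage genes, Cd79b was well above it, with mean log2 levels of 8.58 in induced and 8.59 in uninduced cells. Igll1 and Pax5 were only just above it, with signals of 14 to 127 and 24 to 124 on the 6 arrays. The 9 measured genes of granulocytes and monocytes summed to signals of 422 to 1333 on the induced arrays and 1158 to 3250 on the uninduced arrays, with 0 called and 6 lower at an unadjusted p under 0.05, beside 10.3% of all genes. Their part in the results was not tested.

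Most proteasome genes were measured at a moderately higher level in induced cells, but no single one passed the test. Of the 34 genes, 30 had a positive log2 difference between induced and uninduced cells, against 44.1% of all genes tested, and the median difference was 0.44, ranging from -0.14 for Psma6 to 0.83 for Psma5, beside a median of -0.06 over all genes. At an adjusted p under 0.05 (limma, two-sided, Benjamini-Hochberg over all genes) 0 of the 34 were called, and the smallest adjusted p was 0.108, beside 0.187% of all genes, 21 higher and 13 lower, called in either direction. Centring each array on its median gave 24 higher and 6 lower among all genes, and with the replicate number as a block 0 genes were called. At an unadjusted p under 0.05, 16 of the 34 were higher and 0 lower, beside 7.14% of all genes that were higher and 10.3% that were lower. In 21 of the 34 every induced array lay above every uninduced array, beside 10.7% of all genes. In 1 (Psmb1) every induced array lay below, beside 2441 of the 18193 genes. The groups overlapped in 12, beside 13810 of the 18193 genes.

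All 34 genes had bright probe sets. The dimmest of the 34, Psmd9, had a mean level of 9.89 on the log2 scale, against a median of 5.94 over all probe sets. Among the 4605 genes at least as bright, 51.9% had a positive difference, 13.1% were higher at an unadjusted p under 0.05 and in 21.1% all induced arrays lay above, with a median difference of 0.02. In RNA of whole cultures, fewer cells of a kind and less RNA per cell cannot be told apart, and differences of log2(signal + 16) understate the change of dim genes.

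**Figure D1:**
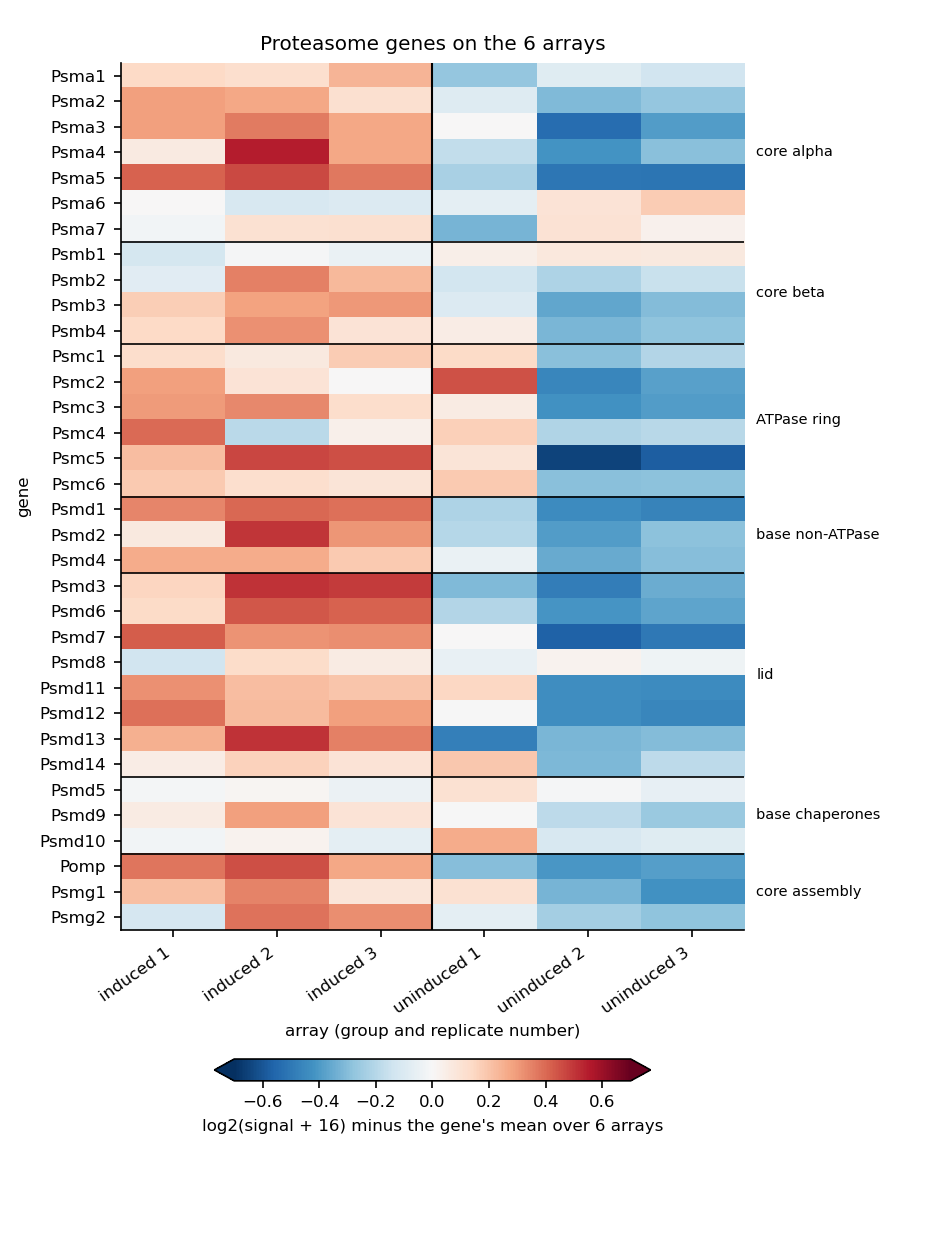
Log2 level of each proteasome gene on each array minus the gene's mean over the 6 arrays, with genes down the page by role and arrays across, induced on the left. Most genes are above their mean on the 3 induced arrays and below it on uninduced replicates 2 and 3, while uninduced replicate 1 lies between for many genes.

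The number of calls depended on uninduced replicate 1. Over the 34 genes, the median deviation from each gene's mean was 0.16, 0.29 and 0.19 on induced replicates 1, 2 and 3, against -0.02, -0.32 and -0.29 on uninduced replicates 1, 2 and 3. For 28 of the 34 genes (82.4%) uninduced replicate 1 was higher than uninduced replicates 2 and 3, against 46.9% of all genes. Between the arrays numbered 1 the median difference was 0.23 and 25 of 34 genes were positive. Between those numbered 2 it was 0.63, with 32 positive, and between those numbered 3 it was 0.50, with 32 positive. Without uninduced replicate 1 the median difference over the 34 genes was 0.55 and limma called 8 higher and 0 lower: Psma3, Psma5, Psmc5, Psmd1, Psmd7, Psmd11, Psmd12 and Pomp, with adjusted p-values from 0.0279 to 0.0468, beside 3.22% of all genes called higher. With the arrays numbered 2 and 3 alone it called 6 higher and 0 lower, namely Psma5, Psmc5, Psmd1, Psmd3, Psmd6 and Psmd7, beside 2.88% of all genes called higher. With all 6 arrays, limma also called 4 of the 34 higher when only genes at or above the median level were tested (Psma5, Psmd1, Psmd13 and Pomp, beside 1.35% of the genes tested), 6 with a trended and robust variance (these 4 with Psmd3 and Psmd6, beside 1.3% of all genes) and 4 with a pseudocount of 64 (Psma5, Psmd1, Psmd13 and Pomp, beside 0.671%).

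**Figure D2:**
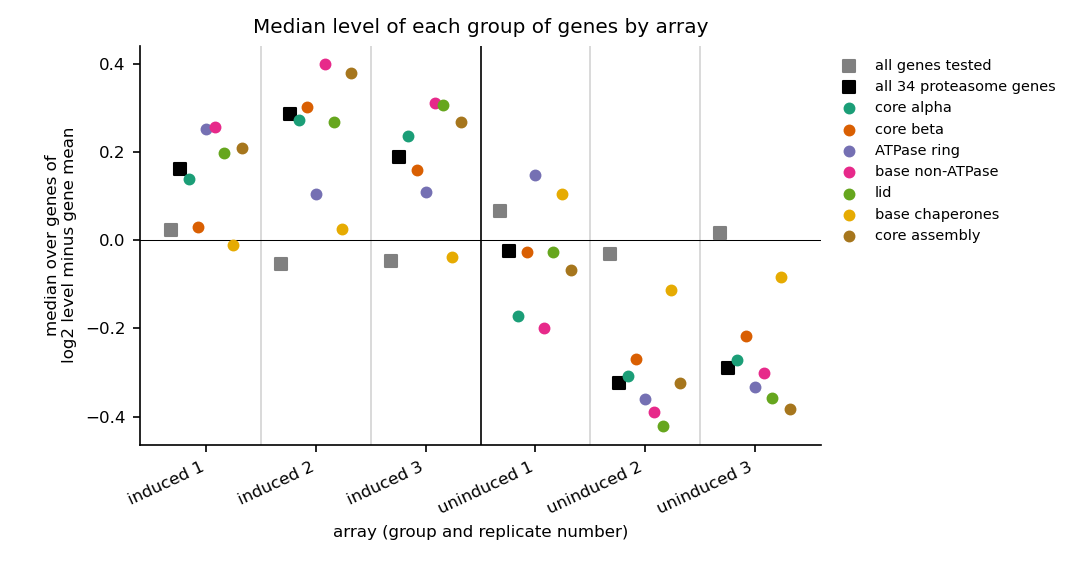
Median over the genes of each role of the log2 level minus the gene's mean, on each array, with induced arrays left of the dark line, squares for all genes tested and for all 34 proteasome genes, and circles for each role. The 3 induced arrays lie between 0.16 and 0.29 for the 34 genes, and uninduced replicate 1, at -0.02, lies nearer to them than uninduced replicates 2 and 3.

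The sequence just upstream of the genes is shown for the 3 genes with the smallest p, Psma5, Pomp and Psmd1, and for the 3 that hold the stricter form of an antioxidant response element, the kind of site that NFE2L1 and NFE2L2 bind with small MAF proteins. Each is the 250 bases before the annotated gene start, from RefSeq on GRCm38.p6, plus strand, 5′ to 3′. The positions are chr3:108256676-108256925 for Psma5, chr5:147860378-147860627 for Pomp, chr1:86064369-86064618 for Psmd1, chr14:45329574-45329823 for Psmc6, chr11:107479278-107479527 for Psmd12 and chr5:123227940-123228189 for Psmd9, and 0 bases of them overlap another gene of the table. Capitals mark the core TGANNNNGC on either strand, which includes every match of the stricter TGACNNNGC.
Psma5: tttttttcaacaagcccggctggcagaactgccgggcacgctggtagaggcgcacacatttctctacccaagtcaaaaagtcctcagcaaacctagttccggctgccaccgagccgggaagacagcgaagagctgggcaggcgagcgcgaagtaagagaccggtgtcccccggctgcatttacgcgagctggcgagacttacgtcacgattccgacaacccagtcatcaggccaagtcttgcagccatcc
Pomp: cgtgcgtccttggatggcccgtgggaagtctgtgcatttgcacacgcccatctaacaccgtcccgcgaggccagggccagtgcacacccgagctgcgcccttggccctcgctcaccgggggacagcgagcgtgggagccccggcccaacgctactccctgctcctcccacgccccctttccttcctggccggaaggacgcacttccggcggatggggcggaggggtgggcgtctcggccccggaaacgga
Psmd1: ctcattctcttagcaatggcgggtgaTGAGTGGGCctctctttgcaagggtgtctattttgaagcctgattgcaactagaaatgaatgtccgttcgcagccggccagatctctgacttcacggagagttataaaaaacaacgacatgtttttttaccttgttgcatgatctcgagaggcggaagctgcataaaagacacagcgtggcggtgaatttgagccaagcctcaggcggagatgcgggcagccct
Psmc6: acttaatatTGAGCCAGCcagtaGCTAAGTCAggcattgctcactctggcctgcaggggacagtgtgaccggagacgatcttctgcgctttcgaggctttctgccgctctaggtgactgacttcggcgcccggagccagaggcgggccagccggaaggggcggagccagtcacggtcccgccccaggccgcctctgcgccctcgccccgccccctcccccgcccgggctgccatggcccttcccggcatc
Psmd12: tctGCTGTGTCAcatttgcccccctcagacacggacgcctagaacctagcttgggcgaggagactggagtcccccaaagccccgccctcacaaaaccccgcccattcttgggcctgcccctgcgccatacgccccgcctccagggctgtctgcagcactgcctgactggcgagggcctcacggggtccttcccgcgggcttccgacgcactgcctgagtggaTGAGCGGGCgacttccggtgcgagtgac
Psmd9: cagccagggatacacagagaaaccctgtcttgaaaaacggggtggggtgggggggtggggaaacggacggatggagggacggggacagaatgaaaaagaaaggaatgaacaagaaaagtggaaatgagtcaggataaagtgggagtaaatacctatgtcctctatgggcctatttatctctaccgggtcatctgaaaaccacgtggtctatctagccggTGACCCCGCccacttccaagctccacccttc
The stricter core ends 218 bases before the start in Psmc6, 238 in Psmd12 and 22 in Psmd9. Of the 34 genes 28 had an entry, all but Psmb1, Psmb2, Psmc3, Psmd3, Psmd7 and Psmg2, and were searched on both strands over this window. TGACNNNGC was in 3 of 28 (10.7%), against 11.5% of 27025 genes, and TGANNNNGC in 10 of 28 (35.7%), against 38.7%. CCAAT was in 11 of 28 (39.3%), against 37.5%. The STAT-type spacing TTCNNNGAA was in Psmg1 alone (3.57%), against 8.13%, and GAAANNGAA, of the kind that interferon regulatory factors bind, was in Psmb3, Psmd4 and Psmd9 (10.7%), against 8.18%. Of the 3 genes with the smallest p-values, Psma5 and Pomp held no TGANNNNGC in this window and Psmd1 held 1. A match is a description of these letters and not a binding site.

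The 7 alpha subunits form the outer ring and gate of the core, and 6 of them had a positive difference (median 0.45). At an unadjusted p under 0.05, 4 were higher, and in 5 the groups did not overlap. For this and each later role, the shares over all genes were 44.1% positive, 7.14% higher at that threshold and 10.7% with all induced arrays above. Among genes at least as bright as Psmd9 they were 51.9%, 13.1% and 21.1%. Psma5 had the smallest p of all 34 genes, with signals of 15932, 16507 and 15467 on the induced arrays, against 10248, 8436 and 8389 on the uninduced arrays. Every induced array was far above any uninduced array. The mean signal was 15968 ± 521 in induced and 9024 ± 1059.8 in uninduced cells (SD, n = 3 each), a 1.78-fold level, and the log2 difference was 0.83 ± 0.16 (SE, 95% interval 0.44 to 1.21), adjusted p = 0.108 in limma. Psma3 had signals of 12959, 13658 and 12816 on the induced arrays, against 10615, 7311 and 8081 on the uninduced arrays. All induced arrays were above all uninduced ones, and uninduced replicate 1 was well above the other uninduced arrays. Its log2 difference was 0.62 ± 0.19 (SE, 95% interval 0.16 to 1.07), adjusted p = 0.193. At the other end, Psma7 had signals of 8024, 8746 and 8791 on the induced arrays, against 6484, 8707 and 8288 on the uninduced arrays. The groups overlapped, and only uninduced replicate 1 was clearly lower. The log2 difference was 0.13 ± 0.18 (SE, 95% interval -0.29 to 0.56), adjusted p = 0.739. Among the rest, Psma4 (0.59 ± 0.19), Psma2 (0.45 ± 0.16) and Psma1 (0.33 ± 0.15) had all induced arrays above, whereas Psma6 was the lowest of the 34 at -0.14 ± 0.15 with overlapping groups (log2 difference and SE).

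The 4 beta subunits of the set, Psmb1 to Psmb4, are structural parts of the inner ring with no active site of their own in the mature core. Their median difference was 0.35, and Psmb3 alone was higher at an unadjusted p under 0.05. Psmb3 had signals of 6673, 7214 and 7309.6 on the induced arrays, against 5544, 4598 and 4800.3 on the uninduced arrays. Every induced array was above every uninduced one, and the log2 difference was 0.51 ± 0.16 (SE, 95% interval 0.13 to 0.88), adjusted p = 0.195 in limma. Psmb4 had signals of 15455, 17554 and 14990.0 on the induced arrays, against 14546, 11248 and 11559.8 on the uninduced arrays. Here too the groups did not overlap, but uninduced replicate 1 came close to the induced arrays, and the difference was 0.37 ± 0.18 (SE, 95% interval -0.06 to 0.79), adjusted p = 0.341. Psmb1 had signals of 8107, 8762 and 8540.4 on the induced arrays, against 9086, 9274 and 9249 on the uninduced arrays. It was the only one of the 34 with every induced array below every uninduced one, by a margin small beside its error, at -0.12 ± 0.14 (SE, 95% interval -0.46 to 0.22), adjusted p = 0.706. Psmb2 stood at 0.33 ± 0.17 with no overlap between the groups.

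The 6 ATPases, Psmc1 to Psmc6, form the motor ring of the base. All 6 had a positive difference, with a median of 0.26, but the groups separated only for Psmc3 and Psmc5. Psmc5 had signals of 3565, 4252 and 4204 on the induced arrays, against 3266, 1957 and 2056 on the uninduced arrays. Uninduced replicate 1 was far above the other uninduced arrays and just below the lowest induced one. The mean signal was 4007 ± 383 in induced and 2426 ± 729 in uninduced cells (SD, n = 3 each), and the log2 difference was 0.76 ± 0.24 (SE, 95% interval 0.18 to 1.33), adjusted p = 0.203 in limma. By array number it was 0.13, 1.11 and 1.03 for replicates 1, 2 and 3. Psmc3 had signals of 9008, 9239 and 7983 on the induced arrays, against 7631, 5457 and 5580.5 on the uninduced arrays, again with uninduced replicate 1 nearest to the induced arrays, and a difference of 0.50 ± 0.19 (SE, 95% interval 0.04 to 0.97), adjusted p = 0.255. Psmc4 had signals of 8965, 5975 and 6980.3 on the induced arrays, against 7634, 5877 and 5954 on the uninduced arrays. Both arrays numbered 1 were the highest of their group, and the difference was 0.16 ± 0.22 (SE, 95% interval -0.36 to 0.68), adjusted p = 0.74. Another bright probe set of Psmc4 stood at 0.51. For Psmc1 (0.25 ± 0.17), Psmc2 (0.26 ± 0.28) and Psmc6 (0.26 ± 0.19) the groups also overlapped. For 6 of the 6 ATPases uninduced replicate 1 was the highest of its group, and for 4 of 6 it reached the induced range or passed it, as it did for 12 of the 34 genes (35.3%) and for 77% of all genes. The median difference over the ring was 0.06 between the arrays numbered 1, 0.48 between those numbered 2 and 0.38 between those numbered 3.

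The 3 non-ATPase subunits of the base, the scaffold proteins Psmd1 and Psmd2 and the ubiquitin receptor Psmd4, had a median difference of 0.58, and all 3 were higher at an unadjusted p under 0.05 with no overlap. Psmd1 had signals of 5796, 6044 and 5977 on the induced arrays, against 3936, 3364 and 3308 on the uninduced arrays. The induced arrays were nearly level with each other and every one was far above the highest uninduced array. The mean signal was 5939 ± 128 in induced and 3536 ± 347 in uninduced cells (SD, n = 3 each), a 1.68-fold level, and the log2 difference was 0.75 ± 0.15 (SE, 95% interval 0.38 to 1.12), adjusted p = 0.116 in limma. Psmd2 had signals of 5976, 8054 and 7075 on the induced arrays, against 4963, 4344 and 4666 on the uninduced arrays. The induced arrays varied more here, and the difference was 0.58 ± 0.18 (SE, 95% interval 0.16 to 1.01), adjusted p = 0.189. Psmd4, which holds ubiquitin chains for degradation, had signals of 5087, 5093 and 4835 on the induced arrays, against 4120.1, 3323 and 3450.5 on the uninduced arrays. The difference of 0.47 ± 0.16 (SE, 95% interval 0.08 to 0.85), adjusted p = 0.223 was the smallest of these 3 genes.

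The 8 lid subunits had a median difference of 0.63, and all 8 were positive, against 44.1% of all genes. At an unadjusted p under 0.05, 5 were higher, against 7.14% of all genes. In 6 all induced arrays lay above, against 10.7% of all genes. Psmd13, a structural lid subunit, had signals of 2395, 2866 and 2573 on the induced arrays, against 1442, 1608 and 1626 on the uninduced arrays. Uninduced replicate 1 was the lowest of its group for this gene, and the groups were far apart. The mean signal was 2612 ± 238 in induced and 1559 ± 101 in uninduced cells (SD, n = 3 each), a 1.67-fold level, and the log2 difference was 0.74 ± 0.16 (SE, 95% interval 0.36 to 1.12), adjusted p = 0.123 in limma. Psmd3, another structural subunit, had signals of 2329, 2984 and 2947 on the induced arrays, against 1689, 1497 and 1643 on the uninduced arrays. Induced replicate 1 was the lowest of the induced arrays, yet above all uninduced ones, and the difference was 0.76 ± 0.17 (SE, 95% interval 0.35 to 1.17), adjusted p = 0.132. Psmd8, also structural, had signals of 4752, 5704 and 5431 on the induced arrays, against 5039, 5314 and 5103 on the uninduced arrays. The groups overlapped and their means lay close together, with a difference of 0.04 ± 0.15 (SE, 95% interval -0.33 to 0.41), adjusted p = 0.938. Psmd7, the inactive partner of the deubiquitinase, stood at 0.71 ± 0.20, Psmd6 at 0.66 ± 0.17, Psmd12 at 0.60 ± 0.19 and Psmd11, which clamps the lid to the core, at 0.49 ± 0.21, all with no overlap. Psmd14, the deubiquitinase that cuts the ubiquitin chain off the substrate, had signals of 10019.9, 10814 and 10308 on the induced arrays, against 11005, 7772 and 8491 on the uninduced arrays. Uninduced replicate 1 was the highest of the 6 arrays for Psmd14, and the difference was 0.21 ± 0.18 (SE, 95% interval -0.24 to 0.65), adjusted p = 0.604.

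**Figure D3:**
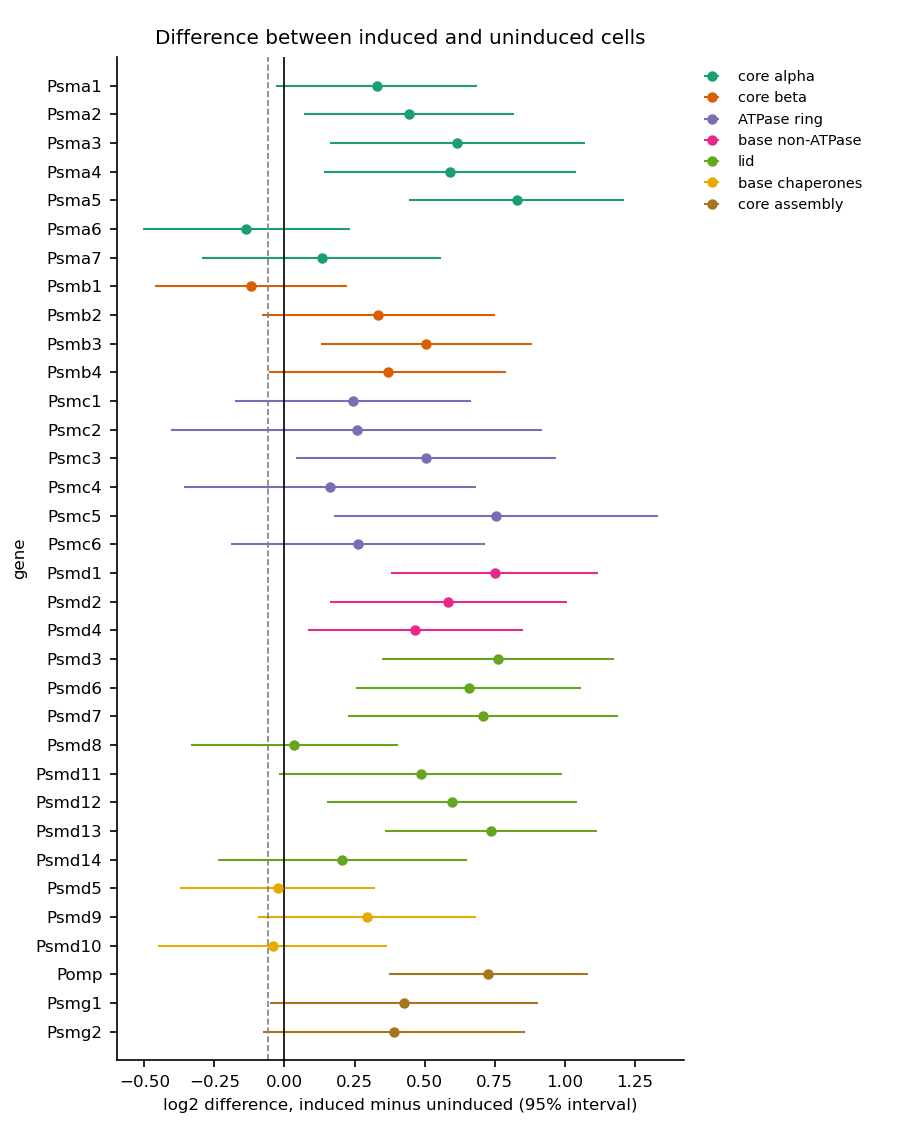
Log2 difference between induced and uninduced cells for each of the 34 genes, by role, with its 95% interval from limma, and the median over all genes as a dashed line. The points run from -0.14 for Psma6 to 0.83 for Psma5, and 30 of 34 are above 0.

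The factors that build the complex differed among themselves in their values. Psmd5, Psmd9 and Psmd10 are chaperones that hold ATPases of the base until it is assembled, and their median difference was -0.02. Psmd9 had signals of 971, 1143 and 1000.0 on the induced arrays, against 932, 819 and 778 on the uninduced arrays. The induced arrays were above the uninduced ones by a small gap, and the difference was 0.30 ± 0.16 (SE, 95% interval -0.09 to 0.69), adjusted p = 0.4 in limma. Psmd10, also known as gankyrin, had signals of 1305, 1346 and 1259 on the induced arrays, against 1587, 1221 and 1247 on the uninduced arrays. Uninduced replicate 1 was above every other array, and the difference was -0.04 ± 0.17 (SE, 95% interval -0.45 to 0.37), adjusted p = 0.931. Psmd5 had signals of 3394, 3452 and 3328 on the induced arrays, against 3677, 3397 and 3287 on the uninduced arrays, with overlapping groups and the largest p of the 34, at -0.02 ± 0.14 (SE, 95% interval -0.37 to 0.32), adjusted p = 0.955. The median of this group and the differences of Psmd5 and Psmd10 turned positive with each array centred on its median and without uninduced replicate 1.

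Pomp, the chaperone that matures the core as it assembles, had signals of 10149.6, 10706 and 9441 on the induced arrays, against 6360.3, 5911 and 6005 on the uninduced arrays. Within each group the arrays were close together and the groups were far apart. The mean signal was 10099 ± 634 in induced and 6092 ± 237 in uninduced cells (SD, n = 3 each), a 1.65-fold level, and the log2 difference was 0.73 ± 0.15 (SE, 95% interval 0.37 to 1.08), adjusted p = 0.116 in limma. By array number it was 0.67, 0.86 and 0.65 for replicates 1, 2 and 3, so that the arrays numbered 1 showed it too. Psmg1 and Psmg2 bind each other and start the assembly of the alpha ring. Psmg1 had signals of 3403, 3752 and 3117 on the induced arrays, against 3172, 2346 and 2191 on the uninduced arrays. Uninduced replicate 1 reached the induced range, and the difference was 0.43 ± 0.20 (SE, 95% interval -0.05 to 0.91), adjusted p = 0.331. Psmg2 had signals of 4876, 6898 and 6652 on the induced arrays, against 5062, 4495 and 4360.3 on the uninduced arrays. Induced replicate 1 was well below the other induced arrays and inside the uninduced range, and the difference was 0.39 ± 0.19 (SE, 95% interval -0.08 to 0.86), adjusted p = 0.359.

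Other probe sets bear on some of these values. The 34 genes had 74 probe sets, 14 genes had 1 and 20 had several. Of the 31 further probe sets at or above the median level, 26 had the sign of the one used, and for 14 of 18 genes with such a probe set all of them did. The exceptions were Psma6, Psmb1, Psmc6 and Psmd13. For Psma6 the others ran from -0.18 to 0.10, and for Psmb1 from 0.12 to 0.36, against -0.12 for the one used. Those of Psmc6 ran from -0.48 to 0.004, and those of Psmd13 from -0.18 to 0.49. Where the sign was the same, the size could still differ. For Psmc4 the other probe set, with a mean log2 level of 11.65, stood at 0.51, against 0.16 for the one used. For Psmb4 the other, at a mean level of 13.29, stood at 0.16, against 0.37 for the one used. With the mean of each gene's probe sets, Psma6 stood at 0.07, Psmb1 at 0.12 and Psmc6 at -0.07.

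**Figure D4:**
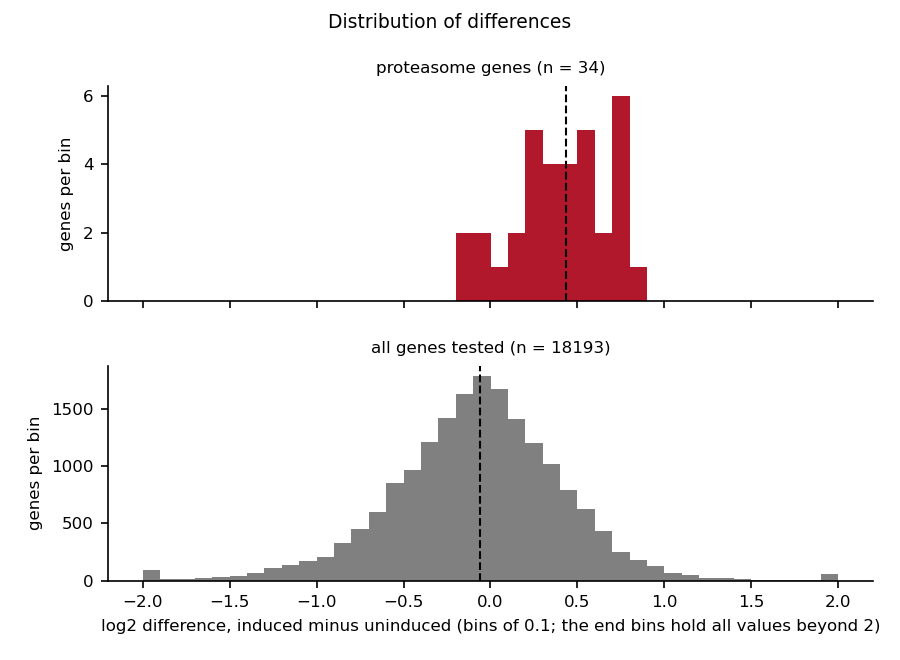
Number of genes in each bin of the log2 difference between induced and uninduced cells, in 1 panel for the 34 proteasome genes and 1 for all 18193 genes tested, with each median as a dashed line and more extreme values counted in the end bins. The 34 genes centre on 0.44 and all genes on -0.06, and the range of the 34, from -0.14 to 0.83, lies inside that of all genes.

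Genes that act beside the proteasome were counted in lists by role. Of all genes, 44.1% had a positive difference, 7.14% were higher at an unadjusted p under 0.05 and 0.187% were called in either direction. Of 8 other genes of the complex, among them its catalytic subunits, 6 were measured, 4 were positive and 0 were called. The catalytic subunits Psmb7 (0.70 ± 0.28), Psmb6 (0.55 ± 0.15) and Psmb5 (0.29 ± 0.19) had adjusted p-values of 0.273, 0.168 and 0.477 in limma, and the assembly factor Psmg4 stood at -0.12 ± 0.15. Of 7 measured genes of the immunoproteasome and the proteasome activators, 6 were positive and 1 was called. That was Psmb10, a catalytic subunit of the immunoproteasome, with signals of 6796, 8963 and 6798 on the induced arrays, against 2075, 1462 and 1546 on the uninduced arrays. The groups were far apart, and Psmb10 rose by 2.14 ± 0.21 (SE, 95% interval 1.63 to 2.66), adjusted p = 0.0396 in limma. The call was lost with the replicate number as a block (adjusted p = 0.198) and with a pseudocount of 1 (0.0965) and, among the single arrays left out, held only without uninduced replicate 1. Psme1, a subunit of the activator that opens the core, stood at 0.84 ± 0.15 (adjusted p = 0.101), the immunoproteasome subunit Psmb9 at 0.68 ± 0.18 and the activator Psme3 at 0.63 ± 0.23.

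Of 8 measured enzymes and shuttle factors that bind the proteasome, 7 were positive, against 44.1% of all genes, and 0 were called. At an unadjusted p under 0.05, 4 were higher, against 7.14% of all genes. The deubiquitinases Uchl5 (0.64 ± 0.15) and Usp14 (0.59 ± 0.18) and the shuttle factors Rad23b (0.59 ± 0.21) and Ubqln4 (0.47 ± 0.16) had the smallest p-values. These counts depended on the probe set used. With the mean of each gene's probe sets, 5 of the 8 were positive and 1 was higher unadjusted. The median difference was then 0.10, instead of 0.38. The limma adjusted p was then 0.608 for Uchl5, 0.530 for Usp14, 0.614 for Rad23b and 0.201 for Ubqln4. Of the genes that supply ubiquitin or unfold ubiquitin-tagged proteins 4 were measured, all 4 were positive and 0 were called. The unfoldase Vcp stood at 0.66 ± 0.15, its cofactors Ufd1 at 0.37 ± 0.18 and Nploc4 at 0.22 ± 0.17, and the ubiquitin-activating enzyme Uba6 at 0.46 ± 0.14.

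The regulators of proteasome genes had a median difference of -0.34, with 0 of 7 measured genes called. The difference was negative for 5 of the 7, beside 55.9% of all genes, and 3 of the 7 were lower at an unadjusted p under 0.05, beside 10.3% of all genes. Nfe2l1, the gene of the transcription factor that raises proteasome subunits, had signals of 705, 717 and 659.8 on the induced arrays, against 1371, 1272 and 1324 on the uninduced arrays. The arrays of each group were close together and the groups were far apart. The mean signal was 694 ± 30.1 in induced and 1322 ± 49.8 in uninduced cells (SD, n = 3 each), and the log2 difference was -0.91 ± 0.14 (SE, 95% interval -1.26 to -0.57), adjusted p = 0.0851 in limma. Without uninduced replicate 1 the adjusted p was 0.0308, and with the arrays numbered 2 and 3 alone it was 0.0441. It was 0.0253 with only genes at or above the median level tested, 0.0144 with a trended and robust variance and 0.0213 with a pseudocount of 64. In the other alternatives Nfe2l1 was not called. The adjusted p was 0.198 with the replicate number as a block, 0.120 with centred arrays and 0.0943 with quantile normalization. It was 0.0755 with the mean of each gene's probe sets, 0.143 with a pseudocount of 1 and 0.137 to 0.292 with any other single array left out. The small MAF partner genes Mafg and Maff stood at -0.72 ± 0.16 (adjusted p = 0.132) and -1.61 ± 0.54 (adjusted p = 0.215). Mafk, also a small MAF gene, stood at -0.16 ± 0.16 (adjusted p = 0.646 in limma). Nfe2l2 stood at 0.01 ± 0.17 (adjusted p = 0.980 in limma). For Maff the difference was 0.24, -2.55 and -2.53 between the arrays numbered 1, 2 and 3, so the arrays numbered 1 did not share it. Keap1, whose product holds NFE2L2 for degradation, stood higher, at 0.50 ± 0.24 (adjusted p = 0.337). Its groups overlapped, and the difference was -0.16, 0.91 and 0.76 between the arrays numbered 1, 2 and 3. Array signals measure RNA, so they say nothing of the processing of these proteins or of proteasome activity.

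**Figure D5:**
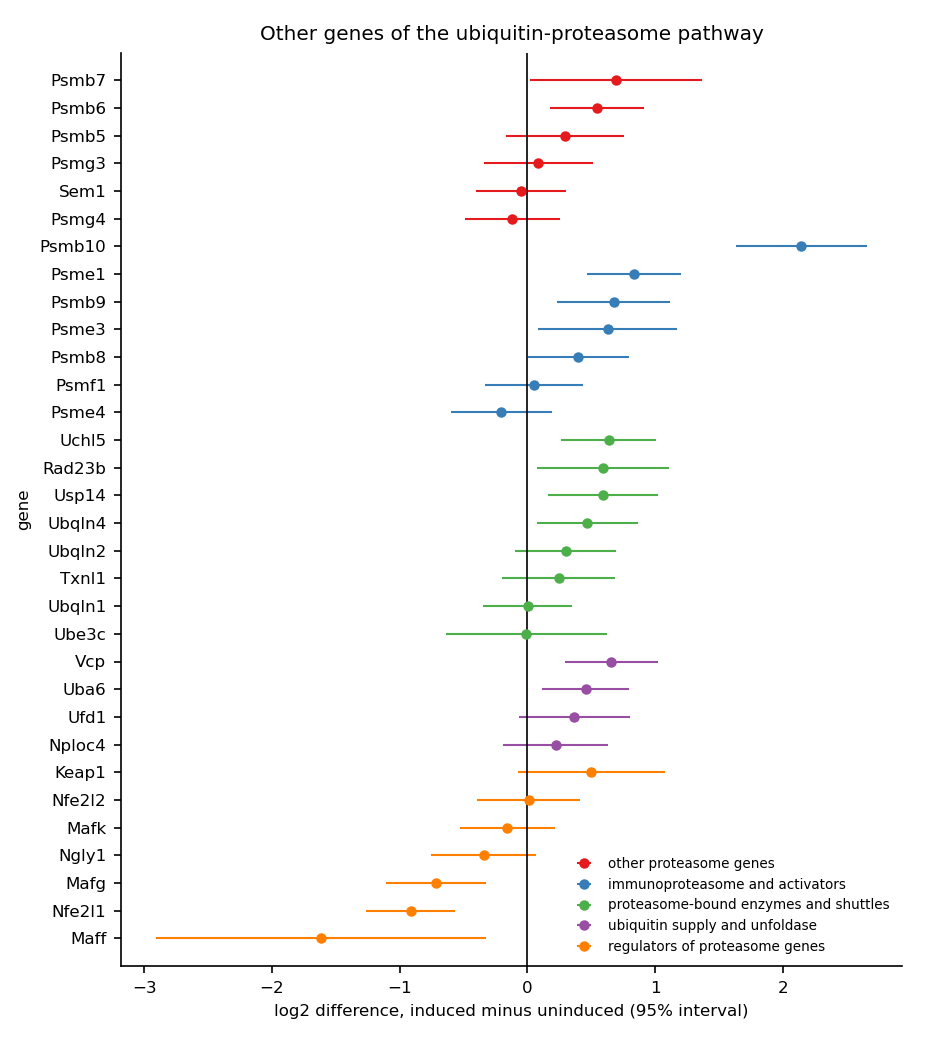
Log2 difference between induced and uninduced cells, with its 95% interval from limma, for the measured genes of the lists beside the 34 proteasome genes, by list. Psmb10 stands apart at 2.14, and Nfe2l1, at -0.91, Mafg, at -0.72, and Maff, at -1.61, have intervals below 0.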

How the data were processed

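The authors deposited linear signal intensities, made with Affymetrix Expression Console 1.4.1 per the submitters' processing notes; how probes were summarised is not stated in the sources used here. Each array had a mean of 500 after 2% was trimmed at each end, and median signals of 46.3 to 63.8. From the intensities log2(signal + 16) was computed, with no further normalization. Of 45101 probe sets the 64 controls were left out. Only the 34945 with exactly 1 gene symbol in the platform table were used, and the brightest stood for its gene (18193 genes). By Entrez number, 34741 of these were found in the gene table of GRCm38.p6 and 204 were not.

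Induced and uninduced arrays, grouped by their titles, were compared with limma 3.58.1 in R 4.3.3 (two-sided, lmFit with eBayes and 4 residual degrees of freedom; Benjamini-Hochberg adjustment over the 18193 genes at a threshold of 0.05). The procedure was tested on simulated data. The labels speak of a triplicate and not of separate experiments, so the p-values reflect just how much these samples vary, and precision is limited by the number of arrays. An exact permutation test of 3 against 3 arrays cannot go below 0.1 and was not used. The labels give both groups the same replicate numbers; same-numbered arrays deviated together from their group means (correlations of 0.30, 0.15 and 0.22 over 10693 genes), so a fit with the number as a block was made as well. This pairing comes from the data and not from the labels.

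The members and lists were chosen with earlier results of these data known. Values on every array are given, per role, for the 2 genes with the smallest p and the 1 with the largest. They are also given for Psmd14, Psmb10, Nfe2l1, Jak2 and Spag9, which were added after their values were seen. Of the other lists, up to 4 genes with the smallest p are named. Mafk and Nfe2l2 were named as well, after their values were seen. In all 15 alternatives were computed. The shares among genes at least as bright as Psmd9 were added after seeing the data. Some genes of the other lists were not analysed here. Figures were drawn with matplotlib 3.10.9.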

Additional observations from a re-analysis of the deposited data

How the results depend on the processing

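The direction of most proteasome genes held under the 15 alternatives, but the number called did not. Of the 34 genes limma called 4 with only genes at or above the median level tested, 6 with a trended and robust variance, 4 with a pseudocount of 64, 6 with the arrays numbered 2 and 3 alone, and 0 to 8 when single arrays were left out. All calls were higher in induced cells. In the paired fit, with the replicate number as a block, 0 were called (16 higher at an unadjusted p under 0.05), and of all genes 0 were called instead of 34 (1275 higher and 1994 lower unadjusted); beside Psmb10 the block changed no other call among the genes named. The number of all genes called by limma was 342 with the filter at the median, 550 with a trended and robust variance, 0 with a pseudocount of 1 (1138 higher and 1669 lower unadjusted), 255 with a pseudocount of 64, 1477 with the arrays numbered 2 and 3 alone, and 0 to 1453 without single arrays, the highest without uninduced replicate 1. The cause of these shifts was not tested.

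The median difference of the 34 genes was 0.57 with the arrays numbered 2 and 3 alone, and 0.37 to 0.55 without single arrays. The median of the base chaperones changed sign, to 0.042 with centred arrays and 0.076 with the arrays numbered 2 and 3 alone, and ran from -0.059 to 0.077 without single arrays. Under the same settings Psmd5 stood at 0.042 and 0.020 and ran from -0.059 to 0.021, and Psmd10 stood at 0.025 and 0.076 and ran from -0.11 to 0.077. Psmd8 ran from -0.020 to 0.11 without single arrays. When probe sets were averaged, Psma6 stood at 0.066, Psmb1 at 0.12 and Psmc6 at -0.070. With this averaging 10 of the 34 were higher at an unadjusted p under 0.05 in limma, instead of 16, and 0 were called. Their median difference was 0.38. Quantile normalization changed no sign and no call among the 34. No detection calls came with the signals, so the level of silent genes was read from liver and brain genes. Of 13 measured, 12 were under the median level. The other, Mbp, had signals of 694 to 1216 and cannot stand for a silent gene. All 34 proteasome genes were far above the median level.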
